A study of Mus musculus with 8 samples.

Results

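The 40 genes described here carry glucose into the cell, break it down to pyruvate and lactate, feed pyruvate into the mitochondrion and run the pentose phosphate branch. They were chosen by gene symbol as transporters, enzymes and regulators of these routes, and all 40 were found among the 21524 genes of the deposited table. The choice was made with earlier results of these data known, so counts of called members are no independent evidence. They were measured by RNA sequencing of regulatory T cells (Tregs), the Foxp3-dependent CD4 T cells that restrain immune responses, sorted by flow cytometry from mouse spleen. The group labelled IL-2 holds 4 libraries (replicates 41 to 44) and the group labelled Ctrl holds 4 (replicates 45 to 48). Strain, age, dose and graft status are not given in the labels of these libraries. The text of the series speaks of an IL-2 mutein, of CTLA-4 Ig and of C57BL/6 recipients of BALB/c grafts. The labels do not say which of these the IL-2 or Ctrl animals received, or whether a library is 1 animal. The p-values below therefore speak of variation between these libraries, which may be technical.

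Glycolysis splits glucose in a preparatory phase that spends ATP, from hexokinase to triosephosphate isomerase, and a payoff phase that returns ATP and NADH, from glyceraldehyde phosphate dehydrogenase to pyruvate kinase. Pyruvate is then reduced to lactate or enters the mitochondrion, where the pyruvate dehydrogenase complex makes acetyl-CoA. The pentose phosphate branch leaves at glucose phosphate and yields NADPH in its oxidative arm and ribose phosphate for nucleotides. In T cells, glycolysis is known to increase with activation and growth, and the transcription factor HIF-1, whose oxygen-regulated subunit is encoded by Hif1a, is a known activator of many genes of the pathway.

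With IL-2, 4 of the 6 payoff phase genes rose (Gapdh, Pgk1, Eno1 and Eno3) and so did lactate dehydrogenase A, while Pgam1 and Pkm did not pass the test. In the main test described below, 16.8% of all tested genes were called higher and 14.6% lower. The grouping into phases was made after the values were seen. Eno1 was 1.74-fold and Eno3 3.54-fold higher, and Ldha was 1.49-fold higher. Gpi1 of the preparatory phase and Pgd and Taldo1 of the pentose phosphate branch were also higher. Eno3 and Pgd passed the main test's filter on low values only through the IL-2 libraries. Aldoa was 1.29-fold lower and Hif1a itself 1.89-fold lower. Ldhb was 2.14-fold lower but had too few reads for the main test. It was called in a further fit on log2 reads, described below. That call was lost when Ctrl replicate 45, 46 or 48 was left out. No gene of glucose uptake, of the hexokinase and phosphofructokinase steps or of pyruvate dehydrogenase and its kinases was called. Of these, Slc2a1, Hk2, Pfkm, Dlat, Pdk2 and Pdk3 had too few reads for the main test. They were fitted only on log2 reads, where Slc2a1 and Hk2 had wide intervals. Hk3 was tested in neither fit. In bulk RNA, fewer cells of a type and less RNA per cell cannot be told apart.

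Values below are normalised reads recovered from the variance-stabilised table, given per library in the order of replicate numbers, and folds are ratios of group means of these reads. The main test was limma on the deposited log2 scale over 5261 genes, and a gene was called at an adjusted p (Benjamini-Hochberg) of 0.05 or less. Of the 40 genes, 25 passed the filter on low values, which asks for about 206 reads in at least 4 libraries. In this test 9 of the 25 were called higher and 2 lower, while 16.8% of all tested genes were called higher and 14.6% lower, 31.4% in either direction. The same 11 less Tpi1, and Rpia, had groups that did not overlap, 9 higher and 2 lower, against 16.7% higher and 14.7% lower of all genes tested there, 31.5% in either direction. Eno3 and Pgd passed the filter only through the IL-2 libraries, so that a difference in them was built into their being tested. A limma fit on log2(reads + 5) reached 10777 genes with at least 10 reads in 4 libraries, and 39 of the 40. There 8 were called higher and 3 lower, against 10.9% and 9.07% of all genes in that fit, 19.9% in either direction. The median difference of the members was 0.10 on this scale, against -0.01 over all genes. The IL-2 and Ctrl libraries did not overlap for 13 of these 39 genes, 9 with IL-2 higher and 4 with IL-2 lower, against 13.0% and 10.9% of the 10777 genes, 23.9% in either direction.

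**Figure D1:**
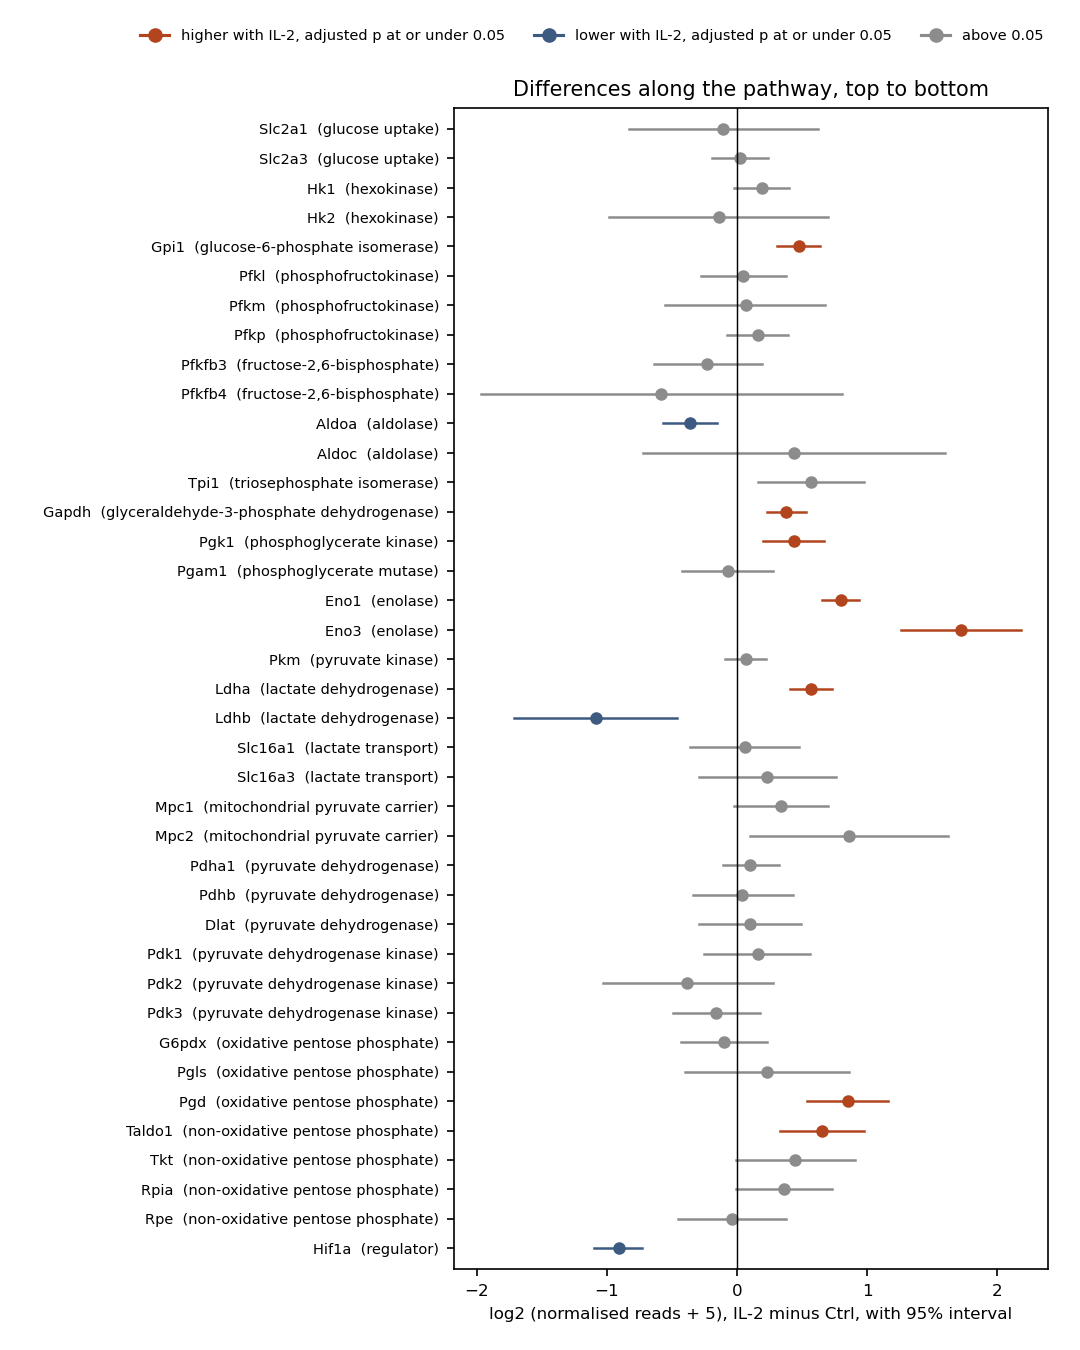
Difference in log2(normalised reads + 5), IL-2 minus Ctrl, for 39 genes in pathway order from top to bottom, with limma's 95% interval before adjustment. The 8 genes called higher lie between 0.38 (Gapdh) and 1.72 (Eno3) and the 3 called lower are Aldoa, Ldhb and Hif1a.

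Estimated depth ran from 4959708 to 6391832 reads in the IL-2 libraries and from 4987191 to 6130980 in the Ctrl libraries. Of the 7 defining Treg markers all were detected, with 2 called higher and 1 lower. Foxp3 held 1643 to 2235 reads with IL-2 and 1123 to 1799 in Ctrl and did not pass (limma adjusted p = 0.115). Il2ra was 2.61-fold higher (limma adjusted p = 3.11e-07), whereas Cd4 was 1.64-fold lower, at 2067 to 2927 reads with IL-2 and 3851 to 4468 in Ctrl (limma adjusted p = 1.49e-04). Summed markers of monocytes, macrophages and dendritic cells were 827 to 1059 reads with IL-2 and 1648 to 1909 in Ctrl, most of it Ctss (688 to 970 and 1511 to 1794), with Itgam (34.9 to 114 and 27.3 to 85.2) and Cd68 overlapping between the groups, Cd14 at 0 throughout and Lyz2 at no more than 14.5. Summed B cell markers were 110 to 212 with IL-2 and 404 to 506 in Ctrl, with Cd74 at 47.6 to 144 and 354 to 438, Cd79b overlapping at 18.3 to 93.1 and 23.7 to 56.2, and Ms4a1 at no more than 2.73. Summed NK cell markers were 0 to 34.9 with IL-2 and 66.1 to 164 in Ctrl. Proliferation genes summed to 12010 to 22254 with IL-2, the highest in replicate 44, and to 5735 to 7915 in Ctrl. Reads of the Y-linked gene Ddx3y were absent from IL-2 replicates 41 and 42 and Ctrl replicate 45 and present in the other 5. The part of these differences in the results below was not tested, except where a value without a library or with Ddx3y as a covariate is given.

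Glucose enters T cells through GLUT1 and GLUT3, encoded by Slc2a1 and Slc2a3. Slc2a3 held 748, 746, 617 and 659 reads in the IL-2 libraries and 628, 702, 668 and 724 in the Ctrl libraries. The groups overlapped, and the 95% interval of the difference on the log2 reads scale ran from -0.19 to 0.24 (limma adjusted p = 0.913). Slc2a1 ranged from 99.8 to 257 reads with IL-2 and from 85.3 to 212 in Ctrl, and its interval of -0.83 to 0.62 left room for a change in either direction (limma adjusted p = 0.869). The ratio of Slc2a1 to Slc2a3 reads overlapped between the groups, at 0.133 to 0.345 with IL-2 and 0.121 to 0.292 in Ctrl.

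Hexokinases trap glucose in the cell by phosphorylating it. Hk1, the broadly expressed form, held 1251, 1339, 1286 and 1050 reads with IL-2 and 946, 1112, 1115 and 1143 in Ctrl. It did not pass in the main test (limma log2 difference 0.12 ± 0.06 SE, adjusted p = 0.162). Over 19 alternatives the adjusted p ran from 0.0458 to 0.798, and it passed only without IL-2 replicate 44. Hk2, the form known to be induced in activated T cells, ranged from 27.7 to 85.1 reads with IL-2 and from 33.6 to 82.1 in Ctrl, with a 95% interval of -0.98 to 0.70 (limma adjusted p = 0.850). Hk3 held at most 5.98 reads in any library and was tested in neither fit.

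Gpi1 encodes glucose phosphate isomerase, which turns glucose phosphate into fructose phosphate at the point where the pentose phosphate branch leaves. It rose, with 1395, 1435, 1337 and 1277 reads with IL-2 against 1020, 996, 966 and 919 in Ctrl. The lowest IL-2 library lay above the highest Ctrl library. The means were 1361 ± 68.9 and 975 ± 43.5 (SD, n = 4 each), a ratio of 1.40 (limma log2 difference 0.31 ± 0.05 SE, adjusted p = 5.76e-04), and the gene passed under all 19 alternatives.

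Phosphofructokinase is the committed step of glycolysis, and its 3 genes encode subunits named for liver, muscle and platelet. None passed. Pfkp held 583 to 744 reads with IL-2 and 566 to 671 in Ctrl, Pfkl 242 to 300 and 208 to 311, and Pfkm 59.0 to 139 and 77.8 to 112. Their 95% intervals on the log2 reads scale were -0.08 to 0.39, -0.28 to 0.38 and -0.55 to 0.68, so that a change of the size seen for Gpi1 (0.48) lay outside the intervals of Pfkp and Pfkl but inside that of Pfkm. Pfkfb3 and Pfkfb4 encode enzymes that make and break the sugar phosphate which activates phosphofructokinase. Pfkfb3 held 213 to 417 reads with IL-2 and 296 to 403 in Ctrl (limma adjusted p = 0.456 on log2 reads). Pfkfb4 had at most 53.5 reads with IL-2, with 0 in replicate 42, and at most 34.5 in Ctrl (limma adjusted p = 0.590).

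Aldolase cleaves the sugar bisphosphate into a pair of triose phosphates. Aldoa, the form of muscle and most other tissues, fell. Its reads were 727, 773, 909 and 779 with IL-2 and 949, 992, 1133 and 1025 in Ctrl. All IL-2 libraries lay below all Ctrl libraries, although IL-2 replicate 43 and Ctrl replicate 45 came close. The means were 797 ± 78.4 and 1025 ± 78.6 (SD, n = 4 each; limma log2 difference -0.22 ± 0.06 SE, adjusted p = 0.0123). Adjusted p-values over 19 alternatives ran from 0.00802 to 0.0971, and the call was lost only among the 5 libraries with Ddx3y reads, where the difference was -0.19. Aldoc, the brain form, ranged from 13.3 to 110 reads with IL-2 and from 19.6 to 52.2 in Ctrl (limma adjusted p = 0.626). Tpi1, whose enzyme interconverts the trioses, held 241, 268, 196 and 283 reads with IL-2 and 218, 132, 164 and 150 in Ctrl. IL-2 replicate 43 lay below Ctrl replicate 45. Tpi1 was 1.49-fold higher by group means and passed narrowly (limma log2 difference 0.19 ± 0.07 SE, adjusted p = 0.0424), but missed the threshold under 12 of 18 alternatives, whose adjusted p ran from 0.0197 to 0.111 and was 0.0515 on log2 reads.

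In the payoff phase 4 of 6 genes rose and 0 fell on both scales, with a median difference of 0.27 on the deposited scale and 0.41 on log2 reads. The count and median on the deposited scale include Eno3. It passed that filter only through the IL-2 libraries, so a difference was built into its being tested there. In the preparatory phase 2 of 6 tested on the deposited scale rose (Gpi1 and Tpi1) and 1 fell, with a median of 0.10. On log2 reads 1 of 9 rose and 1 fell, with a median of 0.16, and these 9 include Hk2, Pfkm and Aldoc with their wide intervals. Of all genes, 16.8% were called higher on the deposited scale and 10.9% on log2 reads. This grouping was made after the values were seen, and the difference between the phases was not tested. Gapdh, which makes the NADH of glycolysis, held 3429, 3743, 3927 and 3850 reads with IL-2 and 2940, 2693, 3061 and 2780 in Ctrl. The groups stood apart, with means of 3737 ± 219 and 2869 ± 164 (SD, n = 4 each; limma log2 difference 0.31 ± 0.06 SE, adjusted p = 0.00131). Gapdh is often used to normalise expression between samples, and here it was 1.30-fold higher with IL-2 under the authors' normalisation. Gapdh, like Eno1, Pgk1, Ldha and Tpi1, has near-identical pseudogenes elsewhere in the genome, and how reads were split among them is uncertain.

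Pgk1 encodes phosphoglycerate kinase, which makes ATP in this phase, as pyruvate kinase also does, and lies on the X chromosome. It held 871, 807, 639 and 719 reads with IL-2 and 538, 581, 532 and 573 in Ctrl. The groups did not overlap, and replicates 41 and 42, which lack Ddx3y reads, were the highest. The means were 759 ± 101 and 556 ± 24.7 (SD, n = 4 each; limma log2 difference 0.24 ± 0.06 SE, adjusted p = 0.00921). With Ddx3y presence as a covariate the adjusted p was 0.0181. Among the 5 libraries with Ddx3y reads it was 0.167, and the difference was 0.14. Over all 18 alternatives the adjusted p ran from 0.00450 to 0.167. Pgam1, the mutase of the next step, did not pass, with 199 to 335 reads with IL-2 and 246 to 287 in Ctrl (95% interval on log2 reads -0.42 to 0.28, limma adjusted p = 0.818).

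Enolase makes phosphoenolpyruvate, and both of its genes measured here rose. Eno1, the form of most tissues, held 3719, 3893, 3779 and 4076 reads with IL-2 and 2181, 2382, 2080 and 2263 in Ctrl. The gap between the groups was several times the range within either. The means were 3867 ± 157 and 2226 ± 128 (SD, n = 4 each; limma log2 difference 0.64 ± 0.05 SE, adjusted p = 3.17e-06), and adjusted p stayed at 5.07e-04 or less under 19 alternatives. Eno1b, a near copy that can share reads, held no more than 69.5 reads in any library. Eno3, the muscle form, held 238, 246, 452 and 310 reads with IL-2 and 85.8, 85.9, 97.3 and 83.5 in Ctrl. The Ctrl libraries lay close together and the IL-2 libraries spread widely, with replicate 43 the highest. The means were 312 ± 99.1 and 88.1 ± 6.23 (SD, n = 4 each), and the log2 reads fit, whose filter all 8 libraries passed, gave a difference of 1.72 ± 0.21 SE (limma adjusted p = 1.51e-04).

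Pyruvate kinase ends the phase. Pkm held 3169, 3088, 2963 and 3165 reads with IL-2 and 2925, 2657, 3021 and 3253 in Ctrl. The groups overlapped, and the 95% interval on log2 reads, -0.09 to 0.22, left out a change as large as that of Gapdh (0.38; Pkm limma adjusted p = 0.578). Gene-level values do not separate the M1 and M2 splice forms of Pkm.

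**Figure D2:**
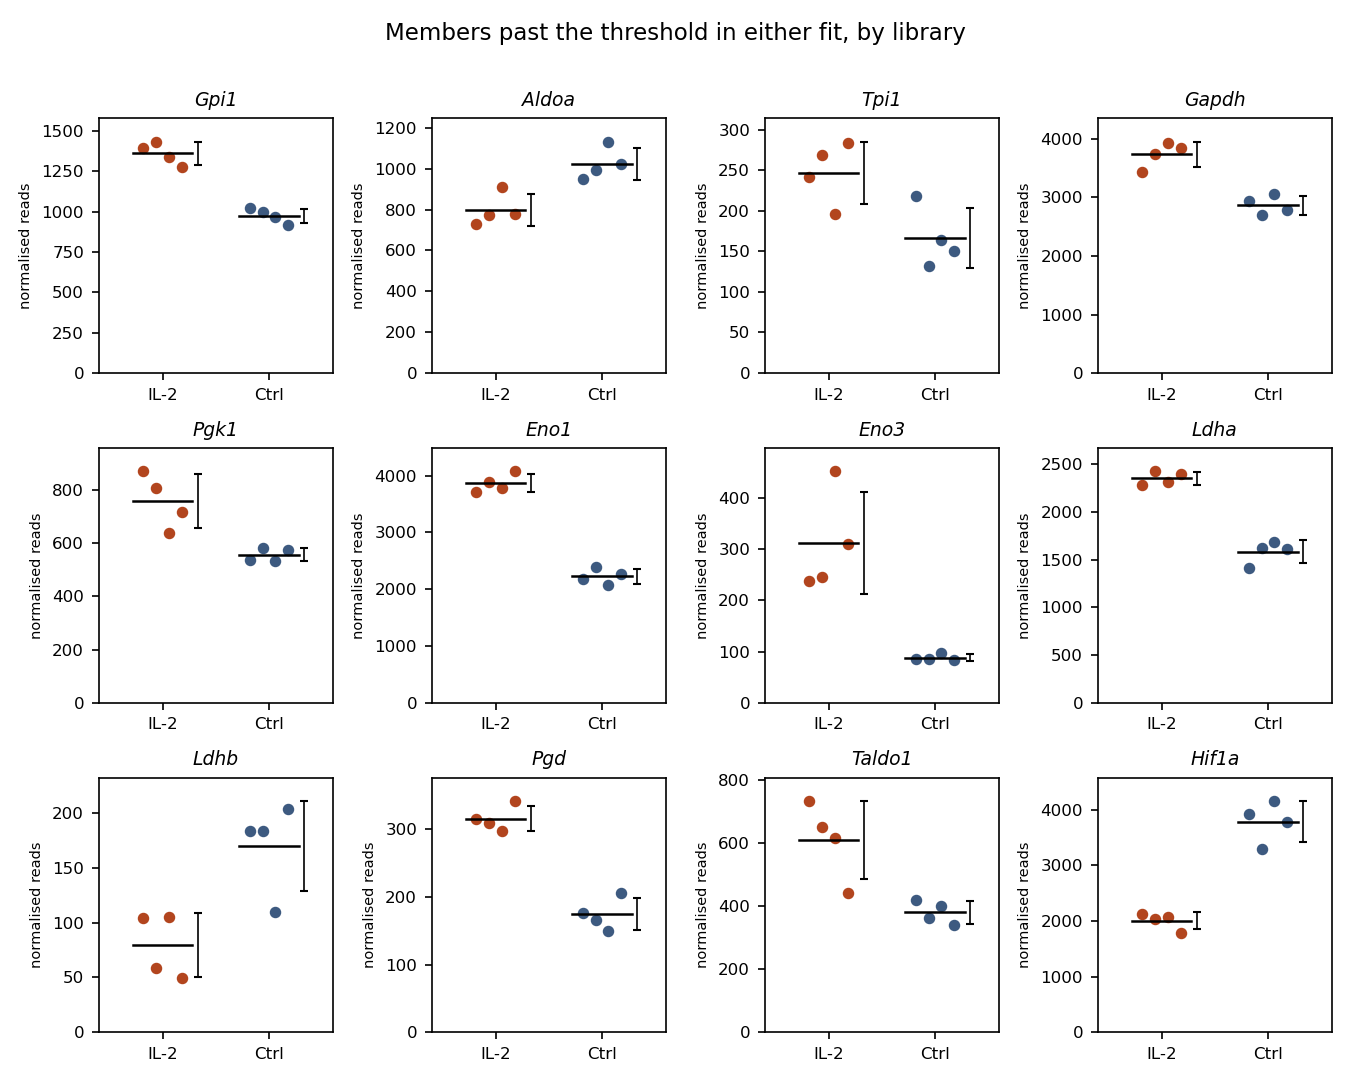
Normalised reads per library for the 12 genes past the threshold in either fit, with IL-2 on the left and Ctrl on the right of each panel; black lines are means and bars are 1 SD (n = 4 per group), and each vertical axis starts at 0. Only Tpi1 shows overlapping groups among these 12.

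Lactate dehydrogenase turns pyruvate into lactate and back. Its A subunit is the form associated with lactate production and its B subunit with lactate use, and their transcripts moved in opposite directions. Ldha held 2282, 2429, 2315 and 2400 reads with IL-2 and 1415, 1628, 1687 and 1609 in Ctrl. The groups stood far apart, with means of 2357 ± 69.2 and 1585 ± 118 (SD, n = 4 each; limma log2 difference 0.42 ± 0.05 SE, adjusted p = 1.01e-04). Ldhb had too few reads for the main test: 104, 59.0, 105 and 49.7 with IL-2 and 183, 183, 110 and 203 in Ctrl. Ctrl replicate 47 lay just above the highest IL-2 libraries. On log2 reads Ldhb was lower (difference -1.08 ± 0.29 SE, limma adjusted p = 0.0191). That call was lost without Ctrl replicate 45, 46 or 48 (differences -1.04, -1.04 and -0.99, adjusted p = 0.0506, 0.0521 and 0.0581), within a range of 0.0116 to 0.0581 over 12 alternatives.

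The ratio of Ldha to Ldhb reads was 21.9, 41.2, 22.0 and 48.3 in the IL-2 libraries and 7.73, 8.90, 15.3 and 7.92 in the Ctrl libraries. Every IL-2 library was above every Ctrl library, with means of 33.4 ± 13.5 and 9.97 ± 3.62 (SD, n = 4 each). Among the 6 isoform pairs examined, this was the only ratio whose groups did not overlap, and none of the 6 was tested. Lactate leaves the cell through MCT1 and MCT4, encoded by Slc16a1 and Slc16a3. Slc16a1 held 146 to 213 reads with IL-2 and 124 to 194 in Ctrl, and Slc16a3 held 74.6 to 122 and 66.9 to 103. Neither passed (limma adjusted p = 0.872 and 0.559 on log2 reads).

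**Figure D3:**
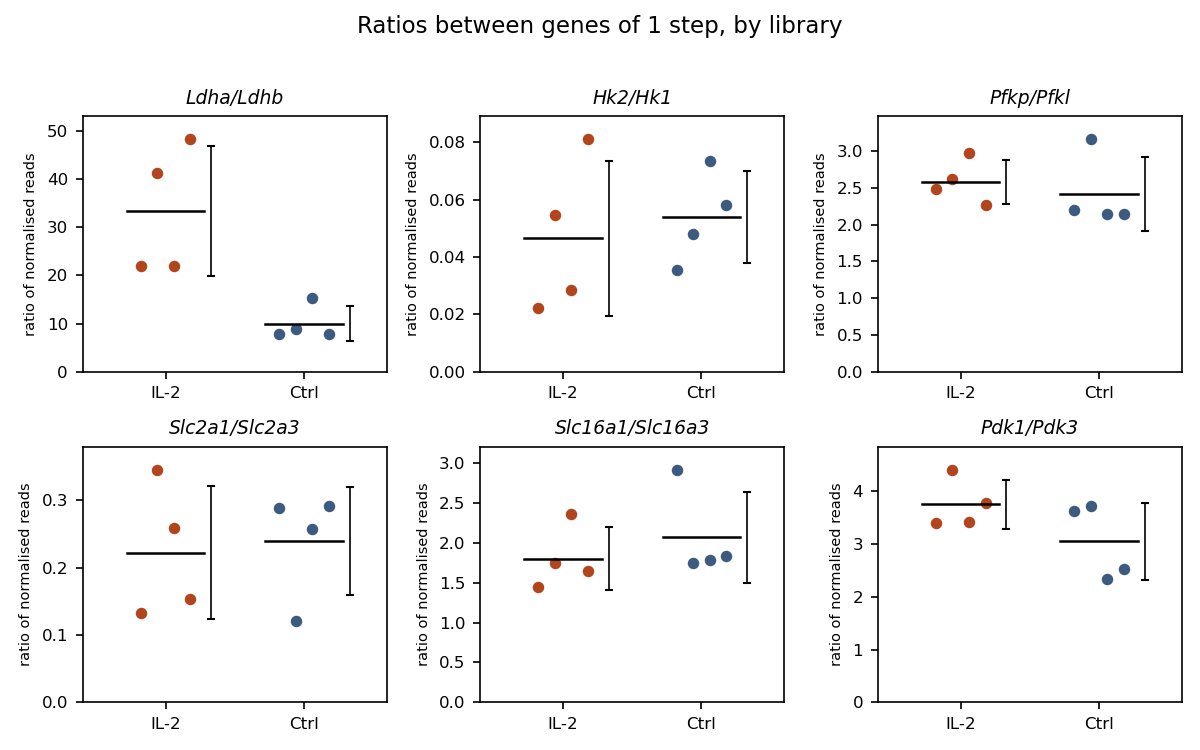
Ratio of normalised reads of 2 genes of the same step in each library, IL-2 left and Ctrl right; lines are means and bars 1 SD (n = 4 per group). Ldha/Ldhb lies between 21.9 and 48.3 with IL-2 and between 7.73 and 15.3 in Ctrl, while the other 5 ratios overlap.

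To show the sequence around the starts of genes that moved together, promoters were read from RefSeq on build GRCm38.p6, another build than the GRCm39 named for the data, and matched by symbol for 39 of the 40 genes. Each window covers 250 bases before to 50 after a start and is printed 5′ to 3′ on the gene's strand. Capitals mark ACGTG or GCGTG on either strand (CACGT and CACGC as read here), the cores recognised by HIF factors. CACGTG, the core bound by Myc and related factors, contains ACGTG on both strands. Ldha, Pgk1, Eno1 and Eno3 are shown as genes of the lower pathway called higher, each by the table's first window.

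Ldha promoter (chr7:46845554-46845853, plus strand): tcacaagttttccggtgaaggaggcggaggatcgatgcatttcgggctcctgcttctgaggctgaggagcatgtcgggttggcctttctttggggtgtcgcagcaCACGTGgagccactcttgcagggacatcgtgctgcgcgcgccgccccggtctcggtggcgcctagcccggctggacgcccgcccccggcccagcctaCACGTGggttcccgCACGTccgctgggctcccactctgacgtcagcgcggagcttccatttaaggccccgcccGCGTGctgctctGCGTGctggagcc
Pgk1 promoter (chrX:106186850-106187149, plus strand): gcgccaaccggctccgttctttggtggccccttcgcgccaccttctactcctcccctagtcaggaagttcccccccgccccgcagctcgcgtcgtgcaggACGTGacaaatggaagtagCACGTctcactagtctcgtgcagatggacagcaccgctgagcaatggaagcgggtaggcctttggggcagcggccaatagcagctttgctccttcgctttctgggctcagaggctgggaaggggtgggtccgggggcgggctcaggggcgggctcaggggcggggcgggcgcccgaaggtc
Eno1 promoter (chr4:150236458-150236757, plus strand): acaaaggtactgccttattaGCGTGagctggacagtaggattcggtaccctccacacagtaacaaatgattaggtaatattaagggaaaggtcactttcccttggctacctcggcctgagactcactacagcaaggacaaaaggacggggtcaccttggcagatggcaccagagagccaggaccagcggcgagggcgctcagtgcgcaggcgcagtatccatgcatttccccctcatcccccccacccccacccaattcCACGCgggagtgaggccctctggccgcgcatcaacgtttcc
Eno3 promoter (chr11:70656926-70657225, plus strand): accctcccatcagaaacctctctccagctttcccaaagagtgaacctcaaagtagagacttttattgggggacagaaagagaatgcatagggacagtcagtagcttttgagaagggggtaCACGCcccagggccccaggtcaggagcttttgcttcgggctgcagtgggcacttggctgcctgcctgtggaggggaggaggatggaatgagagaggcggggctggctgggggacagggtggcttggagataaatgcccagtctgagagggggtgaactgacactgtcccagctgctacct

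The Ldha window held 5 marked stretches, 2 of them CACGTG, the windows of Pgk1 and Eno1 held 2 each and that of Eno3 held 1. Over the 55 windows of the members, ACGTG was present in 41.8% and GCGTG in 58.2%, against 19.6% and 32.4% of all 32851 windows in the table. Among the 13 windows of genes called higher in the main test, ACGTG was present in 23.1% and GCGTG in 69.2%. In the 42 windows of the other members the shares were 47.6% and 54.8%. None of these differences was tested. CACGTG was present in 10.9% of the members' windows and 7.15% of all. A match describes letters in the window and is not a measured binding site.

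Pyruvate enters the mitochondrion through a carrier of 2 subunits. Mpc1 held 203, 158, 172 and 180 reads with IL-2 and 141, 128, 160 and 130 in Ctrl, and Mpc2 held 95.9, 73.0, 66.8 and 57.7 with IL-2 and 58.9, 57.5, 22.0 and 25.3 in Ctrl. The groups overlapped narrowly in both. Neither passed (log2 reads differences 0.34 ± 0.17 and 0.86 ± 0.35 SE, limma adjusted p = 0.180 and 0.107), though the interval of Mpc2 before adjustment, 0.10 to 1.62, did not reach 0.

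The pyruvate dehydrogenase complex joins pyruvate to coenzyme A. Pdha1 and Pdhb encode its first enzyme and Dlat the acetyl carrier. Pdha1 held 993 to 1126 reads with IL-2 and 847 to 1139 in Ctrl, Pdhb 180 to 284 and 187 to 263, and Dlat 148 to 225 and 142 to 199. Their 95% intervals on log2 reads ran from -0.11 to 0.32, from -0.34 to 0.43 and from -0.29 to 0.49. The kinases that switch the complex off did not pass either. Pdk1, a known HIF-1 target, held 538 to 725 reads with IL-2 and 392 to 739 in Ctrl (95% interval -0.25 to 0.56, limma adjusted p = 0.612). Pdk2 held 32.4 to 68.6 and 50.6 to 77.1 (limma adjusted p = 0.436). Pdk3 held 165, 165, 157 and 143 with IL-2 and 167, 199, 168 and 172 in Ctrl. The Pdk3 groups did not overlap, by a margin of a few reads, and the gene did not pass (limma adjusted p = 0.530).

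The oxidative arm of the pentose phosphate branch makes NADPH at its dehydrogenases. Its entry enzyme gene G6pdx held 229, 285, 213 and 246 reads with IL-2 and 254, 233, 318 and 244 in Ctrl, with overlapping groups (95% interval on log2 reads -0.43 to 0.23, limma adjusted p = 0.692). Pgls, the lactonase, held 72.5 to 137 and 58.3 to 128 (limma adjusted p = 0.641). Pgd, the phosphogluconate dehydrogenase that makes the further NADPH, rose. Its reads were 314, 308, 297 and 341 with IL-2 and 176, 166, 149 and 205 in Ctrl. No IL-2 library fell near the Ctrl range, and the means were 315 ± 18.8 and 174 ± 23.4 (SD, n = 4 each), 1.81-fold higher (log2 reads difference 0.85 ± 0.14 SE, limma adjusted p = 0.00146).

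In the non-oxidative arm, which links pentoses back to glycolysis, Taldo1 rose. Taldo1 encodes transaldolase and held 732, 650, 617 and 440 reads with IL-2 and 420, 362, 401 and 340 in Ctrl. IL-2 replicate 44 lay only just above Ctrl replicate 45. The means were 610 ± 123 and 381 ± 36.7 (SD, n = 4 each; limma log2 difference 0.32 ± 0.07 SE, adjusted p = 0.00606), and over 18 alternatives adjusted p ran from 4.30e-04 to 0.0785, the highest among the 5 libraries with Ddx3y reads, where the difference was 0.24. Tkt, the transketolase, held 387, 312, 357 and 387 with IL-2 and 162, 251, 351 and 323 in Ctrl, with Ctrl replicate 45 far below the rest. It did not pass (limma adjusted p = 0.120) but did with Ddx3y presence as a covariate (adjusted p = 0.0475, range over 18 alternatives 0.0475 to 0.342). Rpia, which makes ribose phosphate, held 243, 214, 326 and 209 with IL-2 and 168, 188, 207 and 195 in Ctrl. Its groups did not overlap, by the margin between IL-2 replicate 44 and Ctrl replicate 47, and it did not pass (limma adjusted p = 0.143). Rpe, the epimerase, held 246 to 309 and 185 to 349 (limma adjusted p = 0.864).

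Hif1a had the largest fall among the members tested on the deposited scale. Its reads were 2121, 2045, 2075 and 1780 with IL-2 and 3922, 3289, 4157 and 3772 in Ctrl. The groups stood far apart, with means of 2005 ± 153 and 3785 ± 367 (SD, n = 4 each; limma log2 difference -0.72 ± 0.07 SE, adjusted p = 1.03e-05), and adjusted p stayed at 8.92e-04 or less under 19 alternatives. Of 12 myeloid markers 3 had at least 10 reads in 4 libraries, and 1 of these, Ctss, was lower as well. Its part in the fall of Hif1a was not tested. The HIF-1 protein is controlled mainly by its breakdown, so the transcript does not give its activity.

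Of the 9 other genes of the HIF pathway, all were measured on log2 reads, and 2 fell and 0 rose. Of all genes in that fit, 9.07% were called lower and 10.9% higher. Egln3, a prolyl hydroxylase that marks HIF for breakdown and is itself a known HIF target, held 7.61, 0, 19.7 and 1.02 reads with IL-2 and 79.0, 63.4, 70.1 and 47.9 in Ctrl. Every IL-2 library lay far below every Ctrl library (log2 reads difference -2.81 ± 0.49 SE, limma adjusted p = 0.00187). Egln3 reached the 10 reads asked by the filter of this fit in all Ctrl libraries but, with IL-2, only in replicate 43. A difference was thus built into its being tested. Arnt2, a partner subunit, held 80.5, 49.5, 132 and 66.1 with IL-2 and 217, 138, 289 and 218 in Ctrl (difference -1.38 ± 0.30 SE, limma adjusted p = 0.00630). IL-2 replicate 43 came close to Ctrl replicate 46. Egln1, the main prolyl hydroxylase, passed narrowly as a rise on the deposited scale, with 519 ± 84.2 and 390 ± 40.1 reads (limma adjusted p = 0.0393), and missed under 12 of 18 alternatives (adjusted p 0.0220 to 0.280). Of 14 listed HIF targets outside the members, 10 were measured and 0 were called in either direction by limma. That list holds Pfkfb2, also counted with glycolysis below, and leaves out Egln3.

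For the lists that follow, 10.9% of all genes in the log2 reads fit were called higher and 9.07% lower. Among the 33 other genes of glycolysis and pyruvate use, 16 had enough reads for that fit, where 1 rose and 0 fell. That gene was Adpgk, an ADP-dependent glucokinase, with 272, 232, 255 and 227 reads with IL-2 and 125, 134, 169 and 149 in Ctrl, and its groups were well separated (log2 reads difference 0.76 ± 0.16 SE, limma adjusted p = 0.00506). Like Eno3 and Pgd, it passed the filter of the main test only through the IL-2 libraries, so no value on the deposited scale is given. None of the 7 other pentose phosphate genes measured was called. Of the 7 genes of gluconeogenesis, 3 were measured, and Pcx was called.

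Pcx encodes pyruvate carboxylase, the mitochondrial enzyme that turns pyruvate into oxaloacetate and so refills the TCA cycle. It had a larger fold than any of the 40 members. Its reads were 210, 190, 190 and 239 with IL-2 and 12.8, 21.2, 8.41 and 7.86 in Ctrl. The lowest IL-2 library held several times the reads of the highest Ctrl library, and the means were 207 ± 23.2 and 12.6 ± 6.17 (SD, n = 4 each), 16.5-fold higher (log2 reads difference 3.65 ± 0.29 SE, 95% interval 3.01 to 4.28, limma adjusted p = 7.06e-06). Under 12 alternatives the adjusted p was at most 7.60e-05. All IL-2 libraries met the filter of the log2 reads fit, but the Ctrl libraries at 8.41 and 7.86 reads did not. Pcx thus entered that fit through the IL-2 libraries, and a difference was built into its being tested. The p-values do not allow for this. Pcx missed the filter of the main test, since only 2 libraries passed it. Fbp1, Fbp2 and G6pc, which gluconeogenesis needs, were listed at 0 reads in all 8 libraries.

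Of 15 TCA cycle genes, all measured on log2 reads, 2 rose and 0 fell, with a median difference of 0.22, where 10.9% of all genes were called higher. They were Cs, whose enzyme citrate synthase joins oxaloacetate to acetyl-CoA, and Mdh2, the malate dehydrogenase that makes oxaloacetate. Cs held 1046, 1061, 1030 and 1047 reads with IL-2 and 687, 814, 778 and 868 in Ctrl (limma adjusted p = 0.00353 on the deposited scale). Mdh2 averaged 1129 ± 174 with IL-2 and 811 ± 135 in Ctrl (SD, n = 4 each; limma adjusted p = 0.0175). Both had groups that did not overlap. Mdh2 no longer passed without Ctrl replicate 46 (limma adjusted p = 0.0530, range over 19 alternatives 0.0130 to 0.0530). Among the 5 libraries with Ddx3y reads neither Mdh2 nor Cs passed (differences 0.35 and 0.20, against 0.29 and 0.25 with all 8 libraries; limma adjusted p = 0.0517 and 0.0543, that of Cs within 0.00253 to 0.0543 over 19 alternatives).

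**Figure D4:**
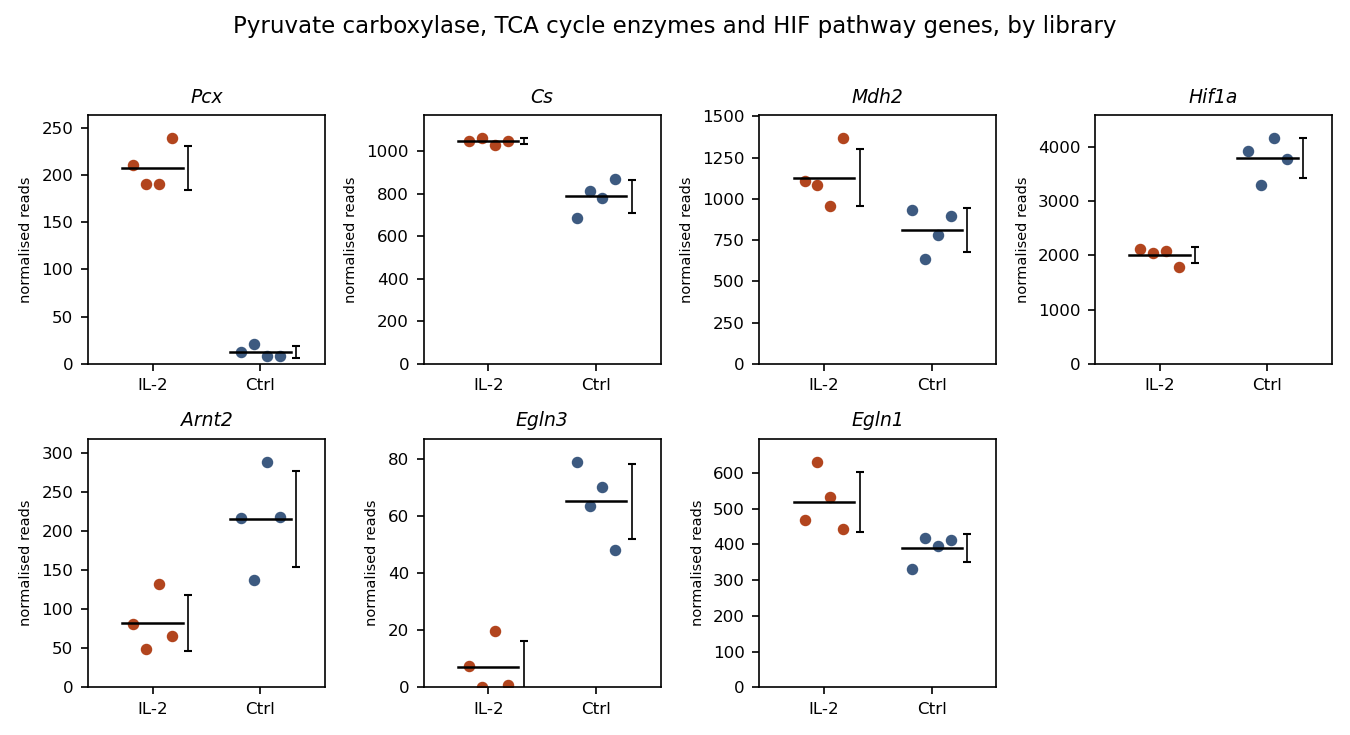
Normalised reads per library of pyruvate carboxylase, 2 TCA cycle enzymes, Hif1a and 3 HIF pathway genes, IL-2 left and Ctrl right; lines are means, bars 1 SD cut at 0 (n = 4 per group), and axes start at 0. Pcx lies at 190 to 239 reads with IL-2 and 7.86 to 21.2 in Ctrl, and Egln3 at 0 to 19.7 and 47.9 to 79.0.

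Together the 40 members made up 0.474, 0.479, 0.477 and 0.468% of all normalised reads in the IL-2 libraries and 0.437, 0.426, 0.440 and 0.434% in the Ctrl libraries. The IL-2 libraries were all higher and lay close together. This sum weighs genes by their reads and does not show a rise across the set. On log2 reads 28 of the 39 members fitted were not called. Replicate 44 held 13044 reads of the proliferation gene Mki67, against 5332 to 6142 in the other IL-2 libraries. Among the members past the threshold in either fit, it was the lowest of the IL-2 group for Gpi1, Ldhb, Taldo1 and Hif1a. It was the highest of that group for Tpi1, Eno1 and Pgd. Without replicate 44, 9 members were called higher and 2 lower in the main test. These 9 included Hk1 (limma adjusted p = 0.0458) and no longer Tpi1 (limma adjusted p = 0.0976).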

How the data were processed

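Total RNA of flow-sorted splenic Tregs was made into libraries with a stranded low-input kit, per the labels' protocols. The submitters' processing notes list Salmon, DESeq2 and build GRCm39 and no settings. For annotation, filters and strand setting the sources used here give nothing. The authors deposited 1 table of variance-stabilised log2 values for 21524 genes, whose lowest value, 8.69, is shared by all libraries and stands for 0 reads. Normalised reads were recovered by inverting the parametric transformation, whose scale the lowest value fixes. Of values under 5.5 reads, 70.9% were whole within 0.02 of a read, so no count test was run. This scale is compressed, and 1 unit above the lowest value is 206 reads.

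Genes with at least 4 libraries 1 unit above the lowest value were fitted with limma 3.58.1 (trend, no covariate) in R 4.3.3, IL-2 minus Ctrl. A further fit used log2(reads + 5). Both were checked on simulated data with known changes, drawn independently for each gene. That check set a condition on how often large changes were recovered for the deposited scale only. The members and lists were chosen with earlier results of these data known. Every member is accounted for; of each other list up to 4 genes past the threshold with the smallest adjusted p are named, and Mki67, Eno1b, Fbp1, Fbp2, G6pc and the marker genes were added beside them. A gene of the TCA cycle list is not reported here and was left out of its counts. Levels are not compared between genes, since no lengths were used. Exons of Hif1a overlap Gm49321 on the same strand in GENCODE M21, so their reads may be split uncertainly. Alternatives changed the filter, normalisation, scale, model and libraries, and added Ddx3y presence (over 50 reads) as a covariate; a fit of the 5 libraries with Ddx3y reads was chosen after seeing the data. Tables were made with pandas 2.3.3 under Python 3.11.15 and plots with matplotlib 3.10.9.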

Additional observations from a re-analysis of the deposited data

Results flagged for a closer look

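Among 102 groups of 4 libraries screened, 80 of them of the 40 genes, there were 4 in which 1 library lay far from the others by Dixon's criterion at 95%, the gap to the nearest library over the range of the group, which chance gives in about 1 of 20 groups, so 4 is no more than chance would give. Pfkp was lowest in IL-2 replicate 44, at 583 reads against 719 to 744 in the other IL-2 libraries. Pdk1 was highest in IL-2 replicate 42, at 725 reads against 538 to 560. Hk1 was lowest in Ctrl replicate 45, at 946 reads against 1112 to 1143 in the other Ctrl libraries. Pdk3 was highest in Ctrl replicate 46, at 199 reads against 167 to 172. None of these 4 genes passed the main threshold.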

How the results depend on the processing

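No paired analysis was possible because the groups share no replicate numbers. Eno1, Ldha, Gpi1, Gapdh and Hif1a kept their direction and their call under all 19 alternatives. Eno3 and Pgd did so under the 18 that tested them, but most of these use a filter they passed only through the IL-2 libraries, so this says little of their stability. The stricter filter tested fewer genes and called 737 genes in all against 1650, with 4 members higher against 9. The 5 libraries with Ddx3y reads called 1095 genes, with 6 members higher and 1 lower; fewer libraries entered that fit. Leaving out 1 library at a time, the low-count members called on log2 reads numbered 0 to 1. Members that changed sign were called in none of these fits, and the cause was not tested; Pfkfb4, at -0.58 with all libraries, was 0.10 without IL-2 replicate 42, which held 0 reads. Slc2a3 was -0.0012 with library medians centred and -0.07 among the 5 libraries, where Pfkl was -0.02 and Pgam1 0.05, and Pfkm was -0.10 with the Ddx3y covariate. Leaving out 1 library gave ranges of -0.38 to 0.06 for Slc2a1, -0.0085 to 0.04 for Slc2a3, -0.37 to 0.12 for Hk2, -0.02 to 0.05 for Pfkl, -0.11 to 0.28 for Pfkm, -1.09 to 0.10 for Pfkfb4, -0.07 to 0.02 for Pgam1, -0.07 to 0.14 for Slc16a1, -0.02 to 0.05 for Pdhb, -0.0007 to 0.19 for Dlat and -0.09 to 0.02 for Rpe. At this depth, genes averaging under 100 reads such as Hk2, Pfkfb4 and Aldoc had intervals over 1 unit wide.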
